A study of Mus musculus with 18 samples.

Results

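The AC response of SjSS bone marrow-derived macrophages (BMDMs) was the change in RNA between BMDMs given apoptotic cells (ACs) and untreated control BMDMs of the same strain. It was measured by RNA-seq in 6 of the 18 samples of the study, 3 control and 3 AC treated, and 15789 of the 20615 genes in the table could be tested. SjSS is the C57BL/6.NOD-*Aec1Aec2* mouse, which carries the *Aec1* and *Aec2* intervals of the NOD genome on the B6 background and is used as a model of spontaneous Sjögren's syndrome. Both the control and the AC treated SjSS BMDMs carried these intervals. Bone marrow of mice aged 7 to 12 weeks was grown to day 7 with 20% supernatant of L929 cells, a fibroblast line whose supernatant supplies M-CSF. The ACs were thymocytes killed with dexamethasone, given at 5 per BMDM for 2 h. After the wash the BMDMs were kept for another 3 h by the sample labels, whereas the methods of the study give 4 h. Thymi were taken from both strains, and it is not stated which thymocytes were given to which BMDMs for RNA-seq. B6 BMDMs, the background strain, had 3 control and 3 AC treated samples made in the same way, and 3 samples of SjSS BMDMs were given 1 µM CpG, an oligonucleotide agonist of TLR9, for 6 h. Replicates are described as separate mice, and it is not stated whether equally numbered control and AC samples share a mouse.

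Macrophages clear dying cells by efferocytosis. Receptors and bridging proteins bind phosphatidylserine on the dying cell, the corpse is digested in the lysosome, and its cholesterol, fatty acids, nucleotides and amino acids have to be stored, used or exported. In macrophages of healthy animals the process is known for restraining inflammatory genes, while nucleic acids or proteins of a corpse that reach Toll-like receptors or cytosolic sensors can switch on interferon and NF-kB targets. The study asked how BMDMs of the Sjögren's model respond to this load. The genes that fell and the metabolic programmes are described here beside the inflammatory genes that rose.

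The library totals were 30688336 to 49362554 counts in control SjSS and 46212590 to 57053309 in AC treated SjSS BMDMs. Levels are in CPM, which relate the counts of a gene to the library total after scaling by edgeR's trimmed mean of M values (TMM). The TMM factors were 1.10 to 1.13 in control and 0.833 to 0.838 in AC treated SjSS libraries, a gap that bears on every small fold change below. All 9 macrophage markers of the list were tested, and their summed level was 15600 to 16300 CPM in control and 18100 to 18900 in AC treated SjSS BMDMs. The 22 thymocyte and T cell markers in the table, of which 7 were tested, summed to 64.7 to 81.6 CPM in control and 44.0 to 48.5 in AC treated SjSS BMDMs. *Cd28* held 8469 of the 10250 marker counts in control and 3781 of the 6113 in AC treated SjSS BMDMs and carried the fall of the sum. Other members had more counts after ACs, in larger libraries, among them, chosen after their values were seen, *Lck* from 21 to 86 counts (called higher, 2.11), *Trbc2* from 1 to 13 and *Cd3g* from 4 to 14, and the median of the 7 tested markers was 0.76, with 2 past the test and higher and 1 lower. The part of thymocyte RNA in the AC response was not tested. Of the defining markers *Rag1* had 0 counts in control and *Themis* 0 in AC treated samples. The summed B cell markers, mostly *Cd79b*, went from 20.8 to 27.9 CPM down to 14.3 to 15.1, and those of dendritic cells, mostly *Fscn1*, from 13.7 to 16.6 CPM up to 29.0 to 30.9. Markers of neutrophils (2.66 to 3.22 CPM in control, 2.49 to 3.20 after ACs), of fibroblasts (167 to 234 CPM and 190.0 to 238) and of natural killer cells, mast cells and basophils (0.508 to 0.858 CPM and 0.672 to 1.37) overlapped between the groups. In bulk RNA, fewer cells of a type and less RNA per cell cannot be told apart.

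After ACs, 1119 genes of the 15789 tested were called higher in SjSS BMDMs (7.09%) and 921 lower (5.83%), where a call needed a log2 fold change beyond 1.3 in either direction and an adjusted p under 0.05 (quasi-likelihood test of edgeR, Benjamini-Hochberg adjustment over all tested genes, used throughout). With the adjusted p alone, 4512 genes were higher (28.6%) and 4642 lower (29.4%), and these are written below as past the test. The split depended on how the libraries were scaled. With upper-quartile scaling 1008 genes were called higher and 1134 lower (3480 and 5699 past the test), and with library totals alone 804 and 1900 (2080 and 8933). The increases were the steeper ones. Among called genes the median size of the change was 2.22 on the log2 scale for the increases and 1.82 for the decreases. Of the increases 673 exceeded 4-fold and 165 exceeded 16-fold, against 349 and 24 of the decreases. The 3 AC treated and 3 control samples did not overlap for 1105 of the 1119 genes called higher and for 894 of the 921 called lower, and over all tested genes this held for 4968 in the upward direction (31.5%) and 5123 in the downward direction (32.4%). The genes called higher took up 4.29 to 4.66% of all counts in control SjSS BMDMs and 20.6 to 21.2% after ACs. The genes called lower took up 2.16 to 2.28% and then 0.472 to 0.496%. Abundance and direction went together, as the plot of change against level shows. Among the 3948 genes with the lowest mean level, under 1.46 CPM, 7.67% were called higher and 12.5% lower, while among the 3947 above 51.2 CPM 11.0% were called higher and 1.82% lower. The median log2 fold change was -0.25 in the former and 0.198 in the latter.

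**Figure D1:**
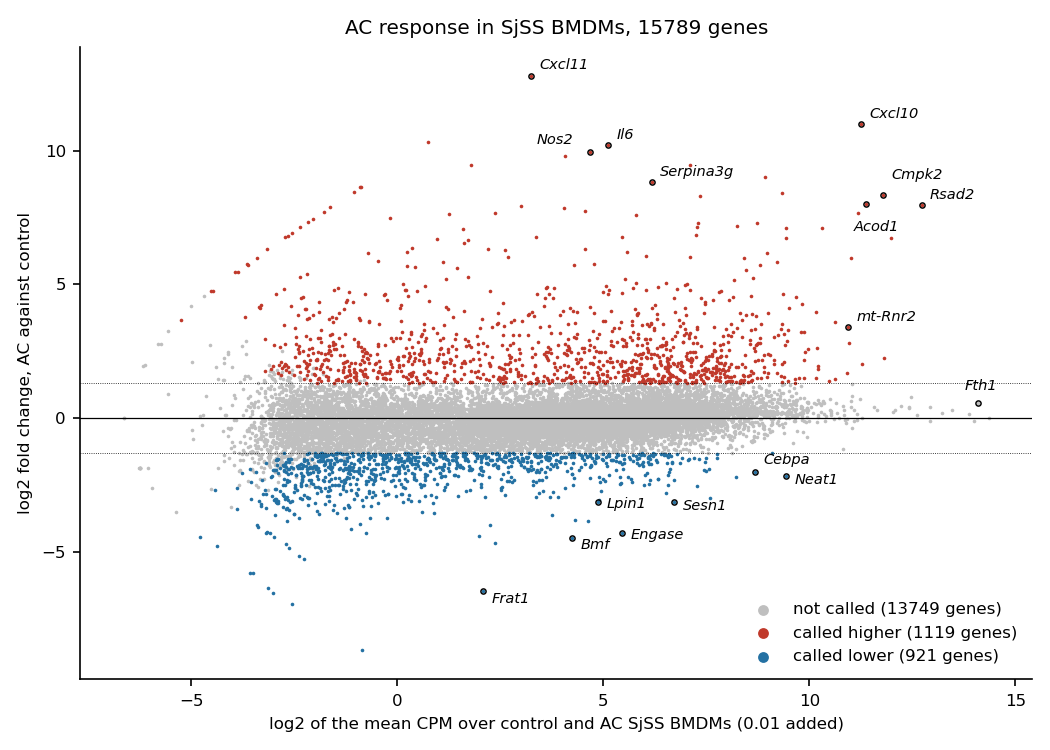
Change of each of the 15789 tested genes with ACs in SjSS BMDMs (vertical axis, log2 fold change of AC against control) plotted against the log2 of its mean CPM over both groups, with 0.01 CPM added (horizontal axis). Red points are the 1119 genes called higher, blue points the 921 called lower, grey points the rest, dotted lines mark log2 fold changes of 1.3 in size, and circles mark named genes such as *Cxcl10* at 10.98 and *Frat1* at -6.47.

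*Frat1* (chromosome 19, 41829970 to 41832583) and its neighbour *Frat2* (chromosome 19, 41845972 to 41848132) encode proteins that bind the kinase GSK3 and favour Wnt signalling. *Frat1* was at 8.90, 6.33 and 9.84 CPM in the 3 control samples and at 0.129, 0.0631 and 0.0897 CPM after ACs. The AC samples lay far under all controls, 88.7-fold lower by the fit (log2 fold change -6.47, SE 0.43, adjusted p = 1.90e-10 by edgeR's quasi-likelihood test). *Frat2* was at 9.74, 6.57 and 13.3 CPM in control and 0.439, 0.547 and 0.179 CPM in AC treated samples, a log2 fold change of -4.66 ± 0.37 (SE). *Bmf* (chromosome 2, 118528757 to 118549687), a BH3-only member of the BCL2 family that promotes cell death, was at 35.5, 31.9 and 41.7 CPM in control and 1.73, 1.72 and 1.39 CPM after ACs (log2 fold change -4.49, SE 0.17, adjusted p = 3.21e-14 by the same test). *Engase* (chromosome 11, 118476829 to 118489209), a cytosolic enzyme that removes N-glycans, went from 67.9, 76.8 and 106 CPM to 4.26, 4.23 and 4.22 CPM, -4.30 ± 0.17 (SE) on the log2 scale. *Gpr183*, a receptor for oxysterols that guides immune cells, fell from 7.99, 7.33 and 7.12 CPM to 0.491, 0.357 and 0.202 CPM. *Cnr2*, the cannabinoid receptor of immune cells, fell from 51.9, 45.9 and 41.8 CPM to 3.72, 2.78 and 3.14 CPM. These genes were picked by the rule for named genes. It took called genes with a control mean of at least 5 CPM and no overlap of AC and control samples. Outside the rule, the largest called decrease was 414-fold.

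The promoters of *Frat1*, the head of the decreases under that rule, and of *Bmf*, a cell death gene close behind it, are shown. Under that rule *Frat2* lay between them. Of the genes named for a lower response in SjSS than in B6 BMDMs, *Frat1* and *Bmf* had the largest differences (-4.70 and -3.17 on the log2 scale). Each promoter is the 250 bases before the RefSeq start site (GRCm38.p6), read 5′ to 3′ on the gene's strand. Matches to CCAAT on either strand are in capitals. The *Frat1* promoter is chr19:41829720-41829969 on the plus strand, with matches starting 222 and 185 bases before the start. That of *Bmf* is chr2:118549687-118549936 on the minus strand, with matches starting 159, 88 and 34 bases before its start, which lies 1 base from that of the deposited table. CCAAT occurred in 36.5% of the 9531 promoters that could be matched to tested genes. No match to the interferon-stimulated response element core, the NF-kB or the AP-1 motif described below lay in either window.
Frat1: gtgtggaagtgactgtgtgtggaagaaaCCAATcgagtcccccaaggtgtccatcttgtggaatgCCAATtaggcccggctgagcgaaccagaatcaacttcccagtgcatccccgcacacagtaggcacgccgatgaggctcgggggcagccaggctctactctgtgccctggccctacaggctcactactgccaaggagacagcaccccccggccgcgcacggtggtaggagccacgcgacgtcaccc
Bmf: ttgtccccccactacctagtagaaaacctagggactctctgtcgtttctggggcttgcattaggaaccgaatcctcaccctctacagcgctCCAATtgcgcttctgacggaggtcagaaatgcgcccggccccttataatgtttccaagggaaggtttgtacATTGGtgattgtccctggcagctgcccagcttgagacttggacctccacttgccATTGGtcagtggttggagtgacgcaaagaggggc

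Further down the order of decreases, *Lpin1* (chromosome 12, 16535669 to 16589770), a phosphatidate phosphatase needed for triglyceride synthesis and a transcriptional coactivator, fell from 55.2, 53.9 and 47.97 CPM to 6.10, 5.83 and 6.08 CPM (-3.12 ± 0.15, SE). *Sesn1* (chromosome 10, 41810574 to 41908424), a stress-inducible inhibitor of mTORC1, fell from 180.4, 159.6 and 227 CPM to 21.4, 21.6 and 21.04 CPM, a log2 fold change of -3.15 (SE 0.11, adjusted p = 1.71e-14 by edgeR's quasi-likelihood test). The 3 AC samples of *Sesn1* lay closer together than the controls and far below them. *Enc1*, an actin-binding protein, went from 359.98, 336 and 327 CPM to 42.5, 39.1 and 47.2 CPM. *Il16*, a ligand of CD4, went from 48.98, 49.5 and 60.1 CPM to 7.03, 5.87 and 6.30 CPM. The remaining genes of the 15 largest decreases under the rule for named genes were *Rtn4rl1* (-3.996), *Zfp395* (-3.83), *Fam214a* (-3.64), *Etl4* (-2.97) and *Abcd2* (-2.96), a peroxisomal transporter of very long-chain fatty acids. All 15 also fell past the test in B6 BMDMs, with smaller fitted changes. The interaction, the log2 difference between the AC responses of SjSS and B6 BMDMs, was negative and past the test for 14 of the 15, and for *Etl4* it was -0.22 (adjusted p = 0.419 by edgeR's quasi-likelihood test). In the plot of these genes by sample, the AC treated B6 samples lie between the SjSS controls and the AC treated SjSS samples for genes such as *Bmf*, *Engase* and *Sesn1*.

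**Figure D2:**
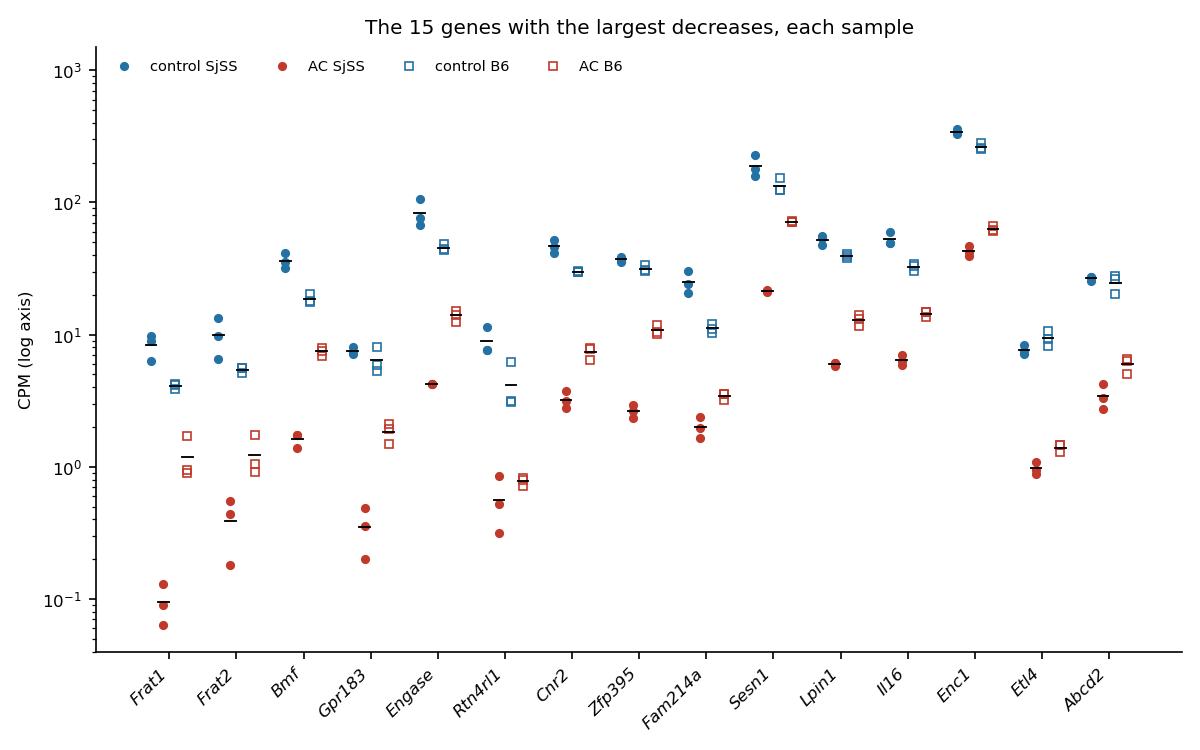
CPM (log axis) of the 15 genes with the largest decreases under the rule for named genes, in each sample of control and AC treated SjSS BMDMs (filled circles, blue and red) and B6 BMDMs (open squares, blue and red), with a black bar at each mean of 3 samples. For all 15 genes the red filled circles lie below the blue ones, as the rule required, for *Frat1* at 0.0631 to 0.129 CPM against 6.33 to 9.84 CPM.

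Regulators of macrophage identity moved in both directions. Of the 25 tested genes of that list, 14 were past the test and higher and 6 lower (9 and 13 with library totals), 3 were called higher and 4 lower, and the median was 0.20 (B6 -0.23). *Cebpa*, a myeloid lineage factor, fell from 653, 649 and 677 CPM to 152, 168 and 163 CPM (-2.04 ± 0.10, SE). *Cx3cr1*, the fractalkine receptor, and *Irf4*, a factor of alternatively activated macrophages, were also called lower (-1.62 and -1.35). *Cd14*, a co-receptor for endotoxin, rose from 270.1, 295 and 194 CPM to 1060.2, 1134 and 1050.5 CPM, and *Fcgr1*, the high-affinity receptor for IgG, was at 1.52 on the log2 scale. In B6 BMDMs *Cebpa* changed by -0.72, and the interaction was -1.32 (adjusted p = 5.90e-07 by edgeR's quasi-likelihood test).

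Negative regulators of MYC and of growth factor signals stood among the genes called lower. *Mnt*, which competes with MYC for its partner MAX, fell from 73.4, 66.3 and 74.4 CPM to 12.9, 11.4 and 14.04 CPM (-2.48 ± 0.08, SE), and *Mxd4*, of the same network, changed by -2.33. Their relative *Mxd1* went the other way, from 16.8, 18.5 and 21.4 CPM to 211, 234 and 226 CPM. Among the CDK inhibitors, *Cdkn1b* (p27) fell from 52.6, 48.9 and 56.997 CPM to 15.5, 14.6 and 15.6 CPM while *Cdkn1a* (p21) rose from 320.2, 358 and 351 CPM to 1536, 1616 and 1450.1 CPM. *Ccnd2*, a D-type cyclin, rose by 1.76 in SjSS and was at -0.72 in B6 BMDMs (interaction 2.48, adjusted p = 6.83e-09 by edgeR's quasi-likelihood test). In all, 9 of the 22 tested genes of the list of D cyclins, CDK inhibitors and MYC factors were past the test and higher and 10 lower (8 and 13 with library totals). The dual-specificity phosphatases and feedback inhibitors of growth factor signalling divided likewise, 9 of 18 higher and 7 lower (5 and 7 with library totals). *Dusp6* and *Dusp7*, cytosolic phosphatases of ERK, fell from 131, 130.3 and 90.2 CPM to 18.8, 20.97 and 23.1 CPM and from 83.1, 78.3 and 91.2 CPM to 16.8, 17.1 and 17.3 CPM. *Dusp2*, a nuclear phosphatase of MAP kinases, rose by 3.55, *Dusp16*, which acts on JNK and p38, by 1.81, and *Spred1*, an inhibitor of the RAS pathway, by 2.07 in SjSS and 0.09 in B6 BMDMs (interaction 1.97).

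Circadian output genes fell as well. Of the 16 tested clock genes 9 were past the test and lower and 3 higher (12 and 1 with library totals), 6 were called lower, and the median was -0.69 (B6 -0.37, CpG treated SjSS -0.21). *Dbp*, a clock-driven transcription factor, went from 24.6, 24.96 and 37.1 CPM to 4.29, 5.03 and 4.85 CPM (-2.61 ± 0.17, SE), and its relative *Tef* from 81.1, 86.5 and 84.7 CPM to 31.5, 32.5 and 34.2 CPM. The repressors *Per1* and *Per3* and the receptor *Nr1d1* had log2 fold changes of -1.35, -1.36 and -1.31, while *Arntl*, an activator of the core clock, had 0.46. In the list of TGF-beta and BMP signalling 7 of 22 genes were higher and 6 lower (2 and 14 with library totals), near the shares of all genes (28.6% and 29.4%). *Id3*, a BMP-induced inhibitor of differentiation factors, was called lower, from 143, 144 and 181 CPM to 45.8, 51.7 and 48.03 CPM. *Ski* (-1.29) and *Smad7* (-1.02), both inhibitors of SMAD signalling, were past the test and short of a call. In the BCL2 family 8 of 16 genes were higher and 5 lower (5 and 7 with library totals). Beside *Bmf* the BH3-only gene *Bcl2l11* (BIM) decreased (-1.16), and the pro-survival genes *Mcl1* and *Bcl2a1a* and *Bcl2a1d* increased by 0.94, 4.65 and 4.11. The *Bcl2a1* copies are near-identical, so that the division of reads between them is uncertain.

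Dexamethasone, a glucocorticoid, was used to kill the thymocytes, and 12 genes that glucocorticoids induce in many cells were followed. In SjSS BMDMs 4 were past the test and higher and 4 lower (4 and 7 with library totals), with a median of -0.08. These shares were near those of all genes (28.6% and 29.4%). *Tsc22d3* (GILZ), *Ddit4* and *Per1* had log2 fold changes of -1.24, -1.27 and -1.35, whereas *Mt2*, which zinc also induces, had 3.38. In B6 BMDMs, which received ACs prepared in the same way, *Tsc22d3* changed by 0.26 (interaction -1.51, adjusted p = 1.38e-07 by edgeR's quasi-likelihood test).

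The inflammatory lists rose almost as a whole, and the plot of list members gives their spread. All 30 tested antiviral interferon-stimulated genes were past the test and higher, 29 of them called, with a median of 3.46 (B6 1.70, CpG treated SjSS 1.46). *Rsad2* (viperin) went from 49.99, 75.3 and 35.9 CPM to 13433, 13142 and 13814 CPM and *Ifit2*, of the IFIT family, from 68.7, 97.5 and 57.1 CPM to 8235, 7532 and 8092 CPM. *Cmpk2*, a mitochondrial nucleotide kinase encoded beside *Rsad2*, went from 19.4, 29.9 and 17.2 CPM to 6870.1, 7055 and 7167 CPM, and these 3 genes and *Acod1* and *Fth1* gained the most CPM of all genes, a measure in which long and abundant transcripts weigh most. Of the interferon-inducible GTPases 17 of 18 were called higher (median 4.597, B6 1.20). *Gbp5* went from 3.56, 4.85 and 3.10 CPM to 1355, 1251 and 1236 CPM (8.42 ± 0.24, SE). The cytokines were called higher in 21 of 24 and past the test in all 24. The list median was 4.63, or 4.28 with genes at 0 set to their bound. *Il6* had 8 counts over the 3 control samples and 9172 after ACs (10.21 ± 0.35, SE). *Il12b*, *Il1b* and *Il10*, the last a cytokine that limits inflammation, rose by 7.92, 6.05 and 3.61, and *Ifnb1* (interferon beta) was at 0.129, 0.177 and 0.0363 CPM in control and 5.66, 5.45 and 4.85 CPM in AC treated samples.

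Of the CXC chemokines 8 of 11 were called higher and *Cxcl14* was past the test and lower (-0.75). The list median was 4.83 in SjSS and 2.89 in B6 BMDMs. *Cxcl10*, which draws T cells through CXCR3, was at 2.60, 4.17 and 0.888 CPM in control and 4626, 5143 and 4774 CPM in AC treated SjSS BMDMs. *Cxcl11*, of the same group, had 0 counts in control and 2477 after ACs, which is at least 904-fold higher if the control group is set to 3 counts, a floor that covers counting error only. *Cxcl2* and *Cxcl1*, which draw neutrophils, rose by 4.83 and 5.72. The CC chemokines were called higher in 10 of 12 (median 4.02, B6 1.497), with *Ccl12* going from 0.682, 0.414 and 0.544 CPM to 104, 119 and 108 CPM and *Ccl5* changing by 7.20. The 10 largest increases under the rule for named genes further held *Serpina3f* and *Serpina3g*, inhibitors of serine proteases, *Ifi205*, of the PYHIN family, *Cd69*, an activation marker, *Gm4841*, an interferon-inducible GTPase, and *Nos2*. *Serpina3g* went from 0.258, 0.503 and 0.254 CPM to 139, 131 and 161 CPM (8.82 ± 0.18, SE), and *Serpina3f* (9.80), *Ifi205* (9.45) and *Cd69* (9.01) were of like size on the log2 scale. *Gm4841* had 1 count in control and 877 after ACs, a ratio of 960 with an exact 95% interval of 172 to 38000. Members of the guanylate-binding, IFIT and serpin clusters resemble one another, and reads shared between them were divided by the authors' counting.

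The promoters of *Cxcl10* and *Rsad2*, of the chemokine and antiviral lists, and of *Il6* and *Acod1*, of the cytokines and the metabolic enzymes, show the motifs that interferon and NF-kB signalling are known to use. Each is the 250 bases before the RefSeq start site (GRCm38.p6), 5′ to 3′ on the gene's strand. The windows are chr5:92348890-92349139 on the minus strand for *Cxcl10*, chr12:26456453-26456702 on the minus strand for *Rsad2*, chr5:30012864-30013113 on the plus strand for *Il6* and chr14:103046762-103047011 on the plus strand for *Acod1*, whose RefSeq start lies 35 bases from the start in the deposited table. Capitals mark matches on either strand to the core of the interferon-stimulated response element (ISRE, GAAANNGAA), to NF-kB (GGANTTTCC), to AP-1 (TGANTCA) and to the TATA box (TATAAA). In *Cxcl10* the ISRE core starts 213, the NF-kB match 158 and the AP-1 match 74 bases before the start. In *Rsad2* the ISRE core starts 119, the AP-1 match 87 and the TATA match 10 bases before it. *Il6* has AP-1 at 249 and NF-kB at 43 bases, and *Acod1* NF-kB at 85 and the TATA box at 28 bases before the start. Of the 9531 matched promoters, 6.41% held the ISRE core, 1.10% the NF-kB motif, 4.38% the AP-1 motif and 6.32% the TATA box, and in 13 promoters an ISRE core overlapped a match to the STAT motif TTCNNNGAA, which 5.76% held. CCAAT matches in *Cxcl10*, *Il6* and *Acod1* are not marked. A match is a run of letters and no evidence that a factor bound.
Cxcl10: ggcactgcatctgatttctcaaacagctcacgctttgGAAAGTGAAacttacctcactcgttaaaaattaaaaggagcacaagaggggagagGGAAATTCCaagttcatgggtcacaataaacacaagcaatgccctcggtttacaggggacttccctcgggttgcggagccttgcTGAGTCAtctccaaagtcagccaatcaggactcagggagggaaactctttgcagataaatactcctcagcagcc
Rsad2: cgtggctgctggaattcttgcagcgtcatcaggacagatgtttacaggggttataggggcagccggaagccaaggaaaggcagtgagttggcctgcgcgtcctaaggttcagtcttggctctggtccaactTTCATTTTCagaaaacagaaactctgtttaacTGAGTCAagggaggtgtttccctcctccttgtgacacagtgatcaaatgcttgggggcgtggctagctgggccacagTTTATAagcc
Il6: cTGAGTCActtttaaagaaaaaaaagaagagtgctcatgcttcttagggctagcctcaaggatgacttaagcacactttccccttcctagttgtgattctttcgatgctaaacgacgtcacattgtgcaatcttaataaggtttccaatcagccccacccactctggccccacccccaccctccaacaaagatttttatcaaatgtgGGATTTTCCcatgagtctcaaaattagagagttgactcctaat
Acod1: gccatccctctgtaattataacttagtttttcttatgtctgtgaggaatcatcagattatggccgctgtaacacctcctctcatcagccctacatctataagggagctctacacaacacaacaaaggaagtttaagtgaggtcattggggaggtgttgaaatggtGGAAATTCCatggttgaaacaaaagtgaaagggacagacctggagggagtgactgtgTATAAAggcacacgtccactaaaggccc

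**Figure D3:**
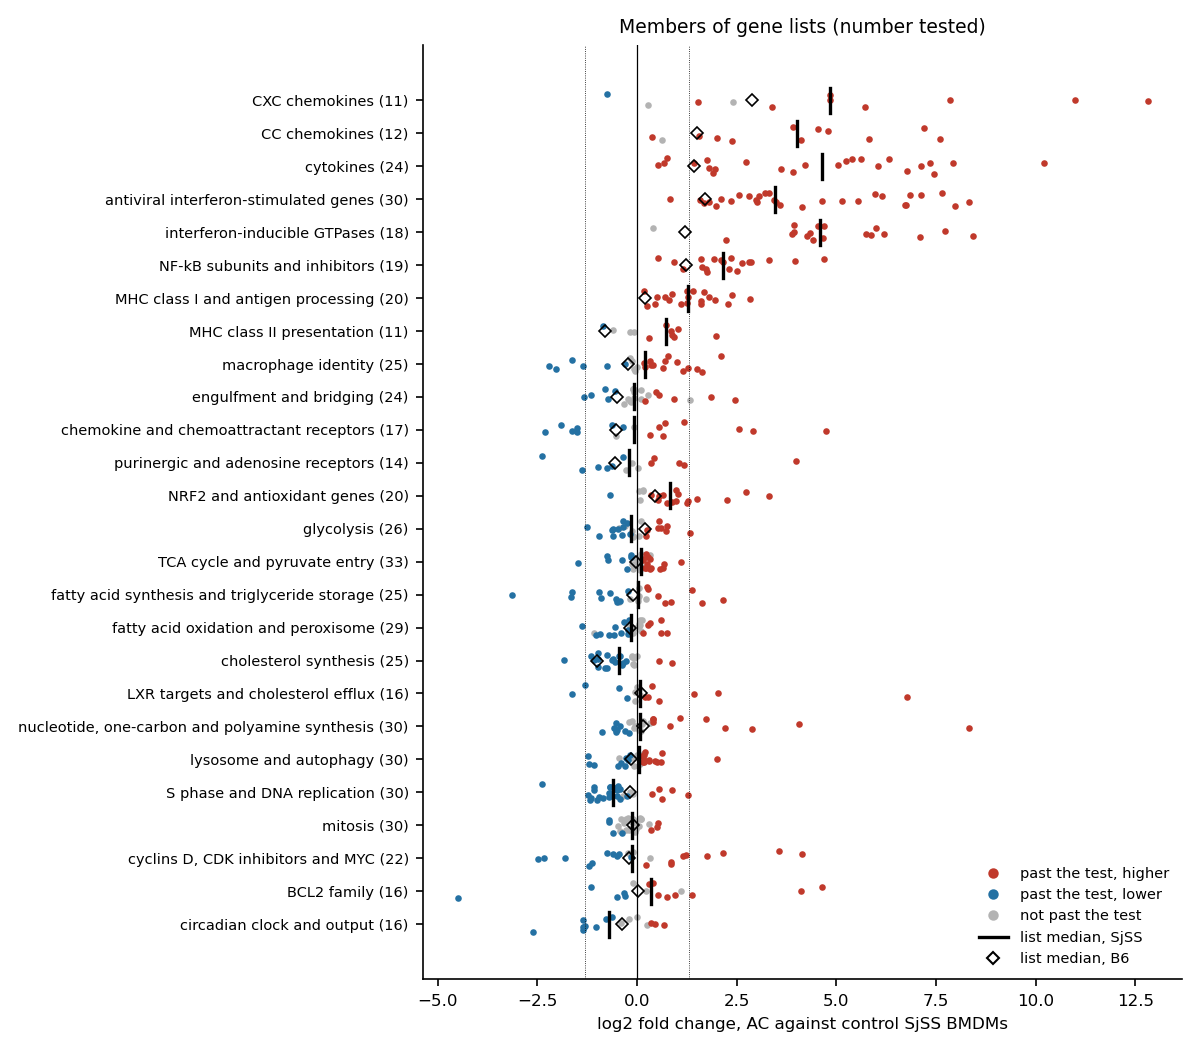
Log2 fold change of AC against control SjSS BMDMs (horizontal axis) for each tested member of 26 gene lists (rows, number tested in parentheses). Red and blue points were past the test and higher or lower, grey points were not, the black bar is the median in SjSS and the open diamond that in B6 BMDMs, and dotted lines mark 1.3 in size. The antiviral list has a median of 3.46 in SjSS and 1.70 in B6, whereas glycolysis, fatty acid oxidation and the TCA cycle lie close to 0.

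Among signalling genes, the NF-kB list rose as a whole and the others moved in both directions. In the NF-kB list all 19 genes were past the test and higher and 16 called (median 2.15, B6 1.24). They included the inhibitors *Nfkbia*, *Nfkbie* and *Tnfaip3*, which NF-kB itself induces and which rose by 2.30, 3.96 and 3.31, as well as the subunits *Nfkb2* (2.80) and *Relb* (2.35). Of 23 tested genes of interferon and STAT signalling 16 were higher and 4 lower (13 and 8 with library totals). *Socs1*, the feedback inhibitor of JAK kinases, went from 2.27, 2.37 and 1.41 CPM to 295, 333 and 312 CPM, *Socs3* rose by 5.05 and *Stat2* by 2.78, while *Ifngr1*, a chain of the interferon gamma receptor, and *Irf8* had log2 fold changes of -0.57 and -0.31. Of 19 sensors of nucleic acids and microbial products 13 were higher and 5 lower, with *Tlr2* (3.28), *Nod1* (2.998) and *Nod2* (3.64) called higher and *Tlr13*, a sensor of bacterial ribosomal RNA, and *Mavs*, the adaptor of RNA sensing, past the test at -0.91 and -0.56. In the list of immediate early, AP-1 and KLF factors 18 of 29 were higher and 5 lower (13 and 10 with library totals). *Batf2* went from 4.16, 4.02 and 4.70 CPM to 74.5, 62.1 and 70.1 CPM, *Nr4a3*, *Klf6* and *Junb* rose by 3.11, 1.72 and 1.596, and *Fosl2* had a log2 fold change of -0.996.

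Genes of MHC class I presentation rose as a whole in SjSS BMDMs, and those of class II in part. All 20 tested genes of MHC class I and antigen processing were past the test and higher, 9 called, with a median of 1.27 (B6 0.21). *Tap1*, a chain of the peptide transporter, went from 55.2, 62.5 and 72.6 CPM to 436, 461 and 466 CPM and *Psmb9*, a subunit of the immunoproteasome, from 33.8, 34.8 and 41.04 CPM to 97.9, 98.2 and 96.2 CPM. *Nlrc5*, the activator of class I genes, rose by 1.95 and *B2m* by 0.81. In MHC class II presentation 7 of 11 were past the test and higher and 1 lower, with 1 called. The median was 0.72 in SjSS and -0.80 in B6 BMDMs, and the counts turned to 2 higher and 4 lower when libraries were scaled by their totals. *Cd74*, the invariant chain, was at 49.8, 60.9 and 44.1 CPM in control and 82.5, 93.9 and 77.9 CPM after ACs in SjSS BMDMs. In B6 BMDMs it was at 33.3, 39.97 and 43.04 CPM and 9.21, 17.2 and 14.98 CPM, so that the AC samples lay above the controls in SjSS and below them in B6 (interaction 2.21, adjusted p = 3.95e-07 by edgeR's quasi-likelihood test). *H2-Aa*, *H2-Ab1* and *H2-Eb1* had the same pattern, with interactions of 2.37, 1.74 and 2.56, and the interaction was positive and past the test for 7 of the 11 genes. Among costimulatory and checkpoint ligands 8 of 13 were higher and 2 lower. *Cd40* (6.03), *Cd274* (PD-L1, 3.97) and *Cd86* (1.995, B6 0.01) were called higher, and the checkpoint genes *Vsir* and *Havcr2* were past the test at -0.87 and -0.80.

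Genes of the engulfment machinery moved in both directions, in shares somewhat below those of all genes with TMM. Of 24 tested engulfment and bridging genes 6 were past the test and higher (25%) and 5 lower (20.8%), beside 28.6% and 29.4% of all genes. The counts were 5 and 8 with upper-quartile scaling and 2 and 15 with library totals, under which 8933 of all 15789 genes were lower. The list median was -0.08 (B6 -0.50, CpG treated SjSS -0.70). *Mertk*, the TAM receptor of resting macrophages, fell from 273, 264 and 256 CPM to 188, 172 and 186 CPM (-0.54 ± 0.08, SE). *Axl*, the TAM receptor of inflamed tissue, rose from 187, 183 and 193 CPM to 343, 333 and 393 CPM, and in B6 BMDMs it was at -0.78 (interaction 1.70, adjusted p = 1.03e-07 by edgeR's quasi-likelihood test). *Itgb5*, a chain of an integrin that binds the bridging protein MFG-E8, was called lower, from 769.7, 778 and 809 CPM to 294, 332 and 315 CPM. *Lrp1*, a large endocytic receptor, fell by 1.15 on the log2 scale, from 2452, 2436 and 2573 CPM to 1221, 968 and 1177 CPM, the gene with the second largest loss of CPM. *Xkr8*, a scramblase that exposes phosphatidylserine, was called higher, from 9.19, 9.23 and 9.19 CPM to 48.2, 51.3 and 51.9 CPM. Of 15 scavenger receptors 5 were higher and 4 lower (3 and 9 with library totals), near the shares of all genes (28.6% and 29.4%). *Olr1*, the receptor for oxidised LDL, rose in both SjSS and B6 (5.21 and 5.04, interaction 0.17 ± 0.23, SE), and *Marco*, whose control samples spread widely, was at 156, 424 and 459.7 CPM in control and 524, 1184 and 1283 CPM in AC treated samples (1.52, adjusted p = 9.81e-04 by the same test).

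Surface receptors for chemoattractants and nucleotides moved in both directions. In the list of chemoattractant receptors 8 of 17 were higher (47.1%) and 7 lower (41.2%), beside 28.6% and 29.4% of all genes. Of them 3 and 5 were called (17.6% and 29.4%, beside 7.09% and 5.83% of all genes). *C5ar2*, a receptor for the complement fragment C5a, fell from 20.9, 18.7 and 17.5 CPM to 4.42, 4.10 and 3.03 CPM, *Cxcr4*, the receptor for CXCL12, from 329, 362 and 263 CPM to 112, 118 and 108 CPM, and *Ccr2*, the monocyte receptor for CCL2, by 1.91 on the log2 scale. *Ccrl2*, a receptor that presents chemerin, rose from 16.7, 21.9 and 12.4 CPM to 428, 459.6 and 453 CPM, and *Fpr2*, a formyl peptide receptor, by 2.91. Among 14 purinergic and adenosine receptors 5 were higher (35.7%) and 6 lower (42.9%), beside 28.6% and 29.4% of all genes. With library totals the counts were 3 and 7. *P2ry1*, a receptor for ADP, fell from 10.8, 10.5 and 13.2 CPM to 2.45, 2.27 and 1.88 CPM. *Adora2a*, the adenosine receptor through which adenosine restrains macrophages, rose from 2.17, 2.25 and 2.43 CPM to 35.7, 37.6 and 35.6 CPM in SjSS and by 2.52 in B6 BMDMs (interaction 1.47). *P2ry13* was at 0.36 in SjSS and -1.97 in B6 BMDMs, an interaction of 2.33 (adjusted p = 5.46e-09 by edgeR's quasi-likelihood test). Its change in SjSS was -0.0575 with library totals and did not pass the test. Of all 48 tested Gpr and Adgr symbols 11 were called higher (22.9%) and 8 lower (16.7%), beside 7.09% and 5.83% of all genes. *Gpr84*, a receptor for medium-chain fatty acids, rose from 13.3, 16.9 and 13.2 CPM to 276, 332 and 348 CPM, followed by *Gpr55* (3.08) and *Adgrg6* (2.85), and after *Gpr183* the largest decreases were *Gpr146*, from 51.9, 49.9 and 57.98 CPM to 8.35, 7.70 and 8.14 CPM, and *Gpr34* (-2.69).

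Pathways of glucose and mitochondrial metabolism moved in both directions and by small amounts. Of 26 glycolysis genes 8 were past the test and higher and 11 lower (4 and 19 with library totals), 1 was called, and the median was -0.15 (B6 0.19, CpG treated SjSS 0.23). The called gene was *Pfkfb3*, which makes the activator of phosphofructokinase and rose from 194, 215 and 160.1 CPM to 466, 451 and 512 CPM (1.33 ± 0.10, SE), against 0.25 in B6 BMDMs. Its relative *Pfkfb2* fell from 15.7, 15.8 and 15.2 CPM to 6.67, 6.29 and 6.55 CPM. *Slc2a1*, the main glucose transporter of activated macrophages, rose by 0.61 and *Hk3* by 0.54, and *Ldhb*, the lactate dehydrogenase chain of oxidative tissues, was at -0.96. In the pentose phosphate pathway 4 of 9 were higher and 3 lower (0 and 7 with library totals), *Shpk*, a kinase known to limit inflammatory activation, at -1.29 and *Pgd* at 0.35. Of 33 genes of the TCA cycle and pyruvate entry 15 were higher and 7 lower, a balance that turned to 9 higher and 11 lower with upper-quartile scaling and to 3 and 24 with library totals. *Pdk2*, an inhibitor of pyruvate dehydrogenase, was the called gene, from 12.5, 12.3 and 13.7 CPM to 5.71, 4.46 and 3.81 CPM, and *Pdk1* had -0.74. *Pcx*, which turns pyruvate into oxaloacetate, rose by 1.10, and *Mpc1*, the mitochondrial pyruvate carrier, by 0.65 in SjSS against -0.27 in B6 BMDMs. *Idh1*, the cytosolic isocitrate dehydrogenase, was at -0.37.

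The enzymes that make inflammatory metabolites changed far more. In the list of nitric oxide, itaconate, tryptophan and prostaglandin enzymes 9 of 16 were past the test and higher, 8 called, and 3 lower (9 and 5 with library totals). *Acod1*, which makes itaconate from a TCA cycle intermediate, went from 20.02, 27.003 and 15.8 CPM to 5249.6, 5311 and 5376 CPM (7.999 ± 0.17, SE, adjusted p = 3.52e-17 by edgeR's quasi-likelihood test). *Nos2*, the inducible nitric oxide synthase, had 7 counts over the control and 6663 over the AC treated samples. *Gch1*, which starts the synthesis of its cofactor tetrahydrobiopterin, rose by 3.07, *Ptgs2* (COX-2) by 3.88, and *Ptgs1* (COX-1) and *Arg1*, the arginase that competes for the same substrate, were past the test at -1.19 and -1.15. Of 30 genes of nucleotide, one-carbon and polyamine synthesis 10 were higher and 9 lower (6 and 17 with library totals), near the shares of all genes (28.6% and 29.4%). *Upp1*, of pyrimidine salvage, and *Pnp*, of purine salvage, were called higher (4.06, and 163, 167 and 173 CPM against 1184, 1284 and 1264 CPM), as were *Odc1*, the first enzyme of polyamine synthesis (2.20), and *Mthfd2*, of mitochondrial one-carbon metabolism (1.72). *Umps*, of new pyrimidine synthesis, was at -0.89.

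Sterol synthesis genes mostly fell, and the balance of the other lipid lists moved with the scaling. Of 25 tested cholesterol synthesis genes 17 were past the test and lower and 2 higher, with a median of -0.46 (B6 -0.99, CpG treated SjSS 0.35). The list also holds *Stard4*, a sterol carrier, and this was its called gene, at 20.9, 26.1 and 21.6 CPM in control and 5.61, 6.69 and 6.75 CPM in AC treated SjSS BMDMs. *Sqle* and *Hmgcs1*, enzymes of the pathway, were at -1.16 and -0.76. A sterol-sensing gene stood apart from them. *Insig1*, the sterol-dependent brake on SREBP2, rose from 68.3, 86.1 and 58.2 CPM to 131, 125 and 130.1 CPM in SjSS and was at -1.16 in B6 BMDMs (interaction 2.02, adjusted p = 8.19e-09 by edgeR's quasi-likelihood test). The interaction was positive and past the test for 11 of the 25 genes, beside 19.6% of all genes.

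Of 16 LXR targets and cholesterol efflux genes 7 were higher and 4 lower, or 3 and 9 with library totals (median 0.07, B6 0.10). *Abcg1*, which exports cholesterol to HDL, rose from 208, 182 and 164 CPM to 498, 481 and 505 CPM in SjSS and by 1.23 in B6, *Abca1* by 0.54 and 0.53, and *Nr1h3*, the receptor LXR alpha itself, by 2.03 and 2.02. *Ch25h*, which makes 25-hydroxycholesterol and is an interferon target as well, went from 0.184, 0.355 and 0.0725 CPM to 15.9, 23.8 and 21.4 CPM in SjSS against 0.65 on the log2 scale in B6 BMDMs. *Scd2*, a fatty acid desaturase, fell from 105, 91.9 and 86.5 CPM to 32.1, 27.6 and 31.7 CPM (interaction -1.53). Fatty acid synthesis and triglyceride storage had 8 of 25 genes higher and 10 lower, or 5 and 14 with library totals (median 0.03). *Acsl1*, the acyl-CoA synthetase of inflamed macrophages, rose from 49.5, 48.9 and 49.9 CPM to 222, 214 and 228 CPM and *Dgat2*, of triglyceride synthesis, by 1.63, while *Acsl3* fell by 1.66 on the log2 scale and *Fasn* was at -0.90. Fatty acid oxidation and peroxisome had 6 of 29 higher and 11 lower, or 3 and 23 with library totals (median -0.16). *Ppard*, a nuclear receptor that drives oxidation, was its called gene, from 58.4, 61.3 and 56.8 CPM to 22.6, 22.5 and 23.2 CPM. *Pparg* was at -1.03 in SjSS and 0.03 in B6 BMDMs, and *Acox3*, of peroxisomal oxidation, at -0.69 and -0.64.

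Stress genes divided by type. Of 20 NRF2 and antioxidant genes 15 were past the test and higher and 1 lower, or 11 and 5 with library totals (median 0.82, B6 0.46). *Hmox1*, which breaks down heme, rose from 1141, 1378 and 1216 CPM to 5372, 6148 and 6279.6 CPM in SjSS and by 2.43 in B6, an interaction of -0.17 (adjusted p = 0.331 by edgeR's quasi-likelihood test, SE 0.13). *Slc7a11*, the cystine transporter, rose by 2.73 and *Txnrd1* by 1.51, *Sod2*, the mitochondrial superoxide dismutase that NF-kB induces, by 3.32, and *Fth1*, the ferritin heavy chain, went from 13713, 14306 and 14027 CPM to 20635, 21276 and 20090.0 CPM. The metallothioneins *Mt1* and *Mt2* rose in both strains (1.61 and 3.38 in SjSS, 1.61 and 3.28 in B6). Their interactions did not pass the test (0.00 ± 0.16 and 0.10 ± 0.25, SE). *Slc30a1*, the zinc exporter, rose from 72.3, 75.3 and 53.8 CPM to 402, 378 and 402 CPM in SjSS and by 0.28 in B6, with 6 of 10 genes of that list higher and 3 lower. In the unfolded protein and integrated stress response 7 of 21 were higher and 7 lower (6 and 13 with library totals), near the shares of all genes (28.6% and 29.4%). *Ppp1r15a* (GADD34) and *Atf3* were called higher (2.74 and 1.39), *Eif2ak3* (PERK) and *Sesn2* lower (-1.83 and -1.65), and *Ddit3* (CHOP) was at -0.49. Among heat shock genes 8 of 13 were higher and 1 lower, or 4 and 7 with library totals. The called ones were the near-identical *Hspa1a* and *Hspa1b* (2.98 and 3.12, B6 3.23 for the latter).

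In the lysosome and autophagy list 13 of 30 genes were past the test and higher and 9 lower, which became 6 and 12 with upper-quartile scaling and 3 and 23 with library totals. *Sqstm1* (p62), a receptor for selective autophagy, was called higher, from 963, 1132 and 876 CPM to 3823, 4242 and 3972 CPM. *Tfeb*, the factor that drives lysosomal genes, and *Ulk1* and *Wipi1*, which start autophagy, were past the test at -1.22, -1.21 and -1.08. *Ctsd*, the protease cathepsin D, lost the most CPM of all genes and yet was at 16563, 16717 and 17433 CPM in control and 15528, 15762 and 15291 CPM after ACs, a log2 fold change of -0.12 that did not pass the test (adjusted p = 0.237 by edgeR's quasi-likelihood test, 0.0233 with upper-quartile scaling). The same held for *Gpnmb*, a glycoprotein of lipid-laden macrophages (-0.12, adjusted p = 0.354 by the same test), and for the ribosomal RNA fragment *Rn18s-rs5* (-0.37, adjusted p = 0.199). The other genes with the largest loss of CPM were *Lrp1* and *Neat1*.

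Most DNA replication genes fell in SjSS BMDMs. Of 30 S phase and DNA replication genes 22 were past the test and lower and 5 higher (25 and 3 with library totals), with a median of -0.61 (B6 -0.18, CpG treated SjSS -0.86). *E2f2*, an activator of S phase genes, was the called gene, from 16.3, 17.5 and 17.9 CPM to 3.85, 3.18 and 2.85 CPM. *Mcm7*, of the replicative helicase, was at 32.2, 31.5 and 43.8 CPM in control and 12.9, 15.3 and 17.7 CPM after ACs, and *Cdc6*, which loads the helicase, at -1.15. *Pcna*, the sliding clamp, rose from 198, 201 and 201 CPM to 295, 328 and 307 CPM and *Ccne1*, the cyclin of S phase entry, by 1.27. Of 30 mitosis genes 3 were higher and 4 lower (0 and 19 with library totals), with a median of -0.12 (B6 -0.10), *Mki67* at 0.36 and *Cenpf* at -0.71. The interaction was past the test for 4 of the 30 S phase genes in the positive and 11 in the negative direction, beside 19.6% and 18.3% of all genes. In ribosome biogenesis 11 of 26 were higher and 6 lower, or 4 and 16 with library totals (median 0.13, B6 0.39, CpG treated SjSS 0.74). *Wdr43* was called higher (1.48), and *Polr1a*, the catalytic subunit of RNA polymerase I, was at -0.53 in SjSS and 0.37 in B6 BMDMs.

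Large families of abundant genes shifted slightly, and their direction depended on the scaling. Of 85 cytosolic ribosomal protein genes 51 were past the test and higher and 2 lower with TMM (median 0.19), 15 and 3 with upper-quartile scaling and 1 and 64 with library totals. For 79 nuclear-encoded subunits of the respiratory chain the counts were 49 and 3 (median 0.21), then 18 and 6, then 1 and 51. For 76 mitochondrial ribosomal proteins they were 32 and 9, then 15 and 18, then 4 and 51, with *Mrpl39* the called gene (1.40). The 13 mitochondrially encoded protein genes had 5 past the test and higher with TMM and 1 lower with library totals, and 17 cytosolic aminoacyl-tRNA synthetases 9 higher and 4 lower, or 3 and 13. Against TMM, upper-quartile scaling moved the median log2 fold change of all genes by -0.12 and library totals by -0.41. In the plot of list medians under each scaling, the TCA cycle, lysosome, ribosomal protein and respiratory chain lists crossed 0. The other lists shown stayed on their side, among them the antiviral, NF-kB, MHC class I, S phase and zinc finger lists.

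**Figure D4:**
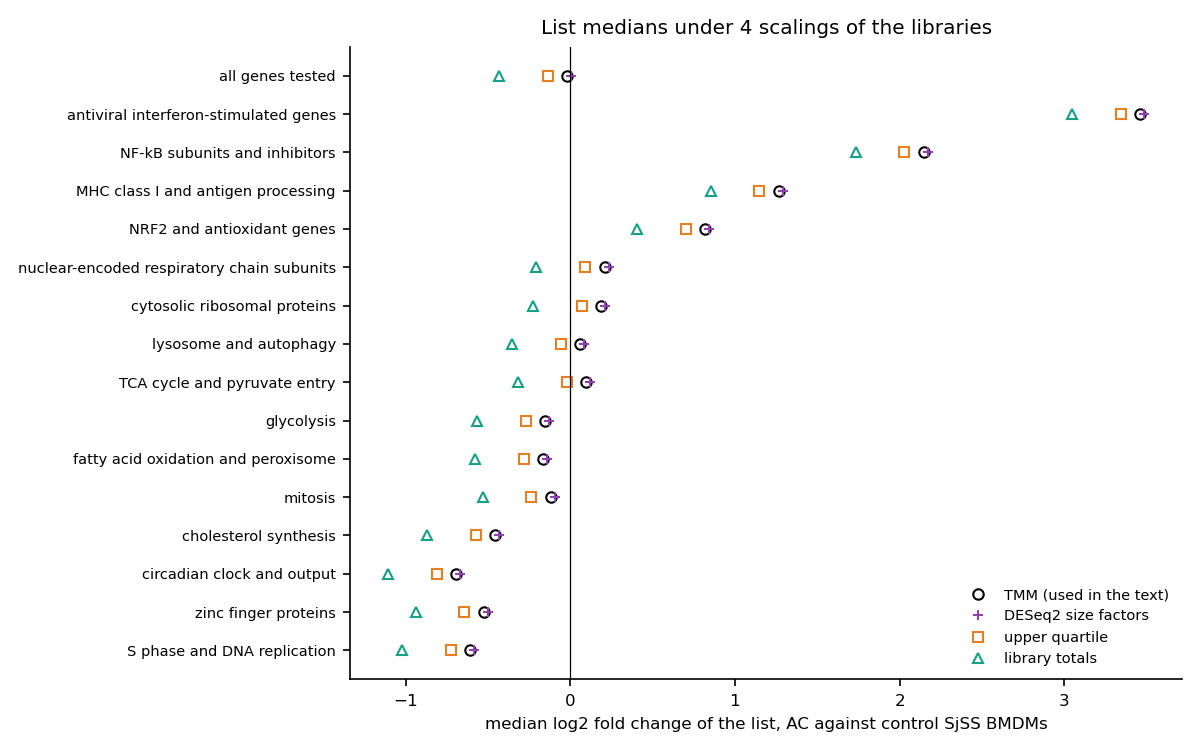
Median log2 fold change of AC against control SjSS BMDMs (horizontal axis) for 15 gene lists and for all tested genes (rows) under 4 scalings of the libraries, TMM (circles), DESeq2 size factors (crosses), upper quartile (squares) and library totals (triangles). Library totals shift each row to the left by about the -0.41 of all genes, so that ribosomal proteins, at 0.19 with TMM, cross 0 and zinc finger genes, at -0.53, do not.

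Zinc finger genes were the largest family examined, and most of them fell. Of 342 tested Zfp symbols, most of them transcription factors, 226 were past the test and lower and 25 higher, 33 were called lower and 3 higher, and the median was -0.53 (B6 -0.03, CpG treated SjSS -0.15). Among protein-coding genes 66.1% of 339 Zfp genes were past the test and lower, against 30.0% of the other 12641. In 4 equal groups of genes, from the lowest to the highest mean level, 43.4, 75.8, 65.0 and 43.5% of the Zfp genes were past the test and lower, against 19.2, 40.5, 35.0 and 23% of all genes. The median of the Zfp genes was -0.64, -0.61, -0.32 and 0.01 in these groups, and in the highest, of 23 Zfp genes, 10 were lower and 7 higher. *Zfp760* fell from 6.52, 5.38 and 4.70 CPM to 0.930, 0.652 and 0.920 CPM and *Zfp882* by 2.93 on the log2 scale. The called increases were *Zfp811* (4.13), *Zfp800*, from 22.1, 19.5 and 16.9 CPM to 160.2, 144 and 158 CPM, and *Zfp36*, which encodes tristetraprolin, a destabiliser of cytokine mRNA, from 97.3, 106 and 92.9 CPM to 313, 362 and 352 CPM. The interaction was negative and past the test for 174 of the 342 genes and positive for 18.

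Noncoding RNAs shared this direction, as the plot by class of gene shows. Of 397 lincRNAs 95 were called lower (23.9%) and 25 higher, of 371 antisense RNAs 73 (19.7%) and 26, of 247 processed transcripts 51 (20.6%) and 21, and of 380 genes marked TEC, transcripts still to be experimentally tested, 93 (24.5%) and 28. The share called lower was 4.25% among 12980 protein-coding genes and 2.72% among 1139 processed pseudogenes. The medians were -0.62, -0.57, -0.57 and -0.74 for the 4 noncoding classes in SjSS and -0.23, -0.16, -0.16 and 0.03 in B6 BMDMs. The shares above were not matched for level. In the same 4 groups by level, the median of the noncoding genes was -0.75 for the 1091 in the lowest and -0.41 for the 251 above them, and it was 0.10 for the 32 and 0.00 for the 21 in the upper groups. The medians of all genes there were -0.25, -0.17, -0.01 and 0.198. Of the noncoding genes 32.1, 45, 34.4 and 38.1% were past the test and lower, against 19.2, 40.5, 35 and 23% of all genes. In the middle groups these shares were close. Some antisense RNAs overlap coding genes, and strand use in the authors' counting is not given in the sources used here, so that their reads cannot be told apart from those of the opposite strand.

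RNAs held in the nucleus fell together and the ribosomal RNAs of mitochondria rose, in lists made after the values were seen. *Neat1*, which builds nuclear paraspeckles, was at 1220.5, 1069 and 1123 CPM in control and 322, 176 and 257 CPM in AC treated SjSS BMDMs (-2.18 ± 0.24, SE), against -0.02 in B6 (interaction -2.16, adjusted p = 3.11e-05 by edgeR's quasi-likelihood test). *Malat1* was at 1132, 923 and 1028 CPM and 663, 317 and 617 CPM (-0.95, B6 0.53), and *Kcnq1ot1* fell by 2.31 on the log2 scale in SjSS and was at 0.52 in B6. *mt-Rnr2*, the large mitochondrial ribosomal RNA, rose from 428, 366 and 234 CPM to 3365, 3858 and 3583 CPM and *mt-Rnr1* from 138, 122 and 82.03 CPM to 663, 783 and 643 CPM (3.39 and 2.61, B6 1.303 and 1.13, CpG treated SjSS 0.41 and 0.17). These 2 mitochondrial and 4 nuclear RNAs moved with the AC treated SjSS libraries beside the zinc finger and noncoding genes. The labels name standard Illumina library preparation from total RNA without saying how ribosomal RNA was removed, and its part in the decreases was not tested.

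**Figure D5:**
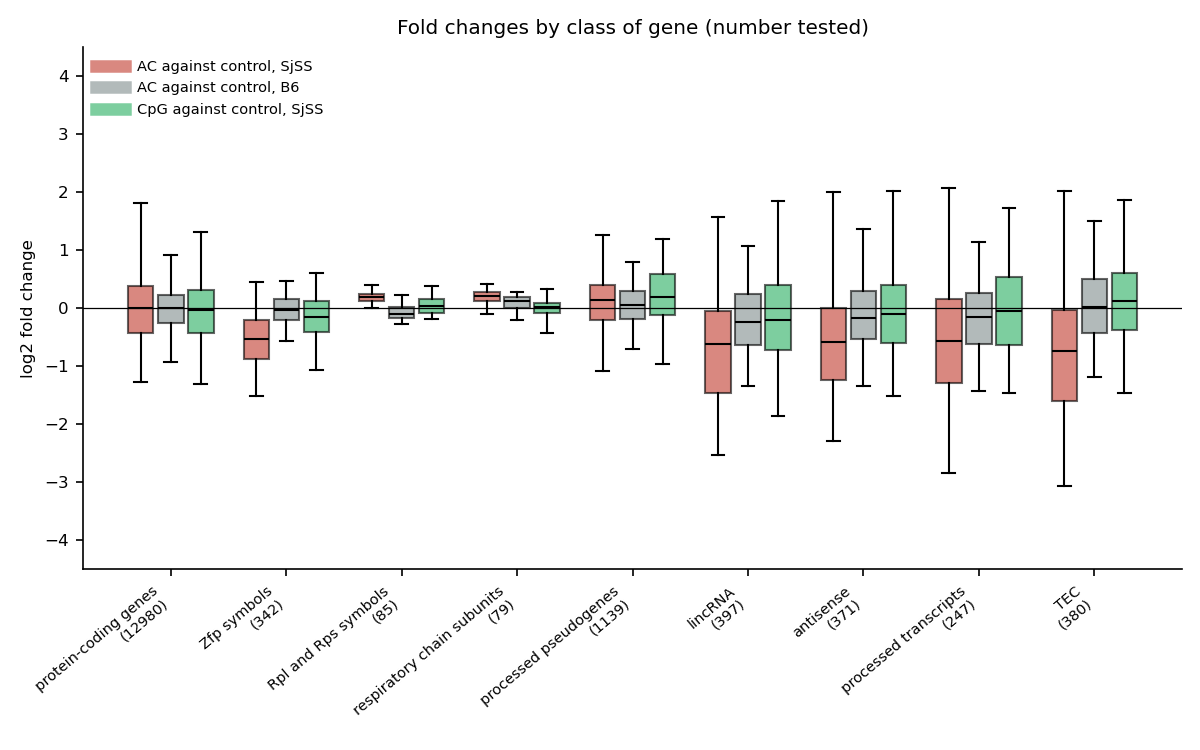
Log2 fold changes (vertical axis) of the tested genes of 9 classes (number of genes in parentheses) for AC against control in SjSS (red) and B6 BMDMs (grey) and for CpG against control in SjSS BMDMs (green). Boxes give the median and quartiles and whiskers the 5th to 95th percentile over genes, and the red boxes of Zfp genes and of lincRNA, antisense, processed transcript and TEC genes lie mostly below 0, with medians of -0.53 to -0.74.

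Of 223 tested Slc symbols 64 were past the test and higher (28.7%) and 79 lower (35.4%), near the shares of all genes, and 14 and 10 were called. With library totals 38 were higher and 134 lower. *Slc2a6*, a hexose transporter of lysosomes, rose from 4.48, 6.15 and 5.28 CPM to 148, 164 and 157 CPM, and *Slc7a2*, the arginine transporter that feeds nitric oxide synthesis, from 7.64, 6.51 and 5.80 CPM to 84.9, 73.6 and 81.5 CPM, against 0.40 in B6 and 0.28 with CpG. The largest decreases were of genes with few counts, *Slc25a27* and *Slc7a15* at under 1 CPM and *Slc16a5*, of the monocarboxylate transporter family, from 1.82, 1.18 and 1.45 CPM to 0.258, 0.357 and 0.247 CPM. Of 47 regulators of small GTPases 23 were lower and 10 higher (28 and 8 with library totals). *Arhgap19*, a RhoA inhibitor, fell from 252, 256 and 289.9 CPM to 44.3, 43.2 and 48.1 CPM, with *Arhgef4* (-2.27) and *Arhgap33* (-1.92) also called lower and *Arhgap28* (3.12), *Arhgef37* (2.78) and *Arhgef3* (2.07) higher. Of 45 Trim symbols 9 were called higher (20%) and 2 lower (4.44%), beside 7.09% and 5.83% of all genes. *Trim30c* went from 4.44, 4.02 and 4.99 CPM to 133, 117 and 128 CPM, *Trim30b* and *Trim21*, a cytosolic receptor for antibody, rose by 3.44 and 3.10, and *Trim16* and *Trim65* were called lower (-1.59 and -1.46). Of 31 histone genes 4 were higher and 4 lower (1 and 12 with library totals), with *Hist1h1d* (1.51), *Hist1h2bq* (-2.11) and *Hist2h2bb* (-1.98) called at about 1 CPM.

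The AC response of B6 BMDMs, in which no sample is shared, gives the nearest comparison. Of the 921 genes called lower in SjSS BMDMs, 786 (85.3%) had a negative log2 fold change in B6 and 411 (44.6%) were past the test there, with a median of -0.59. Of the 1119 called higher, 977 (87.3%) were also on the higher side in B6 and 698 (62.4%) past the test there, with a median of 0.79. In the opposite direction 34 of the genes called higher and 10 of those called lower were past the test in B6. The SjSS calls had been made in SjSS samples, which by itself favours the larger change there. By the interaction, 752 genes (4.76%) had a response called higher in SjSS than in B6 and 437 (2.77%) one called lower, and with the adjusted p alone 3098 (19.6%) and 2889 (18.3%). Beside those shares, the interaction was positive and past the test for 28 of 30 antiviral genes, 12 of 12 CC chemokines, 18 of 19 NF-kB genes and 18 of 20 MHC class I genes. The largest negative interactions among genes called in SjSS were those of *Frat1* (-4.70 ± 0.57, SE), *Bmf* (-3.17), *Kcnq1ot1* (-2.84), *Gpr183* (-2.62) and *Engase* (-2.60). *Frat1* was at 4.13, 3.90 and 4.26 CPM in control and 0.953, 1.72 and 0.891 CPM in AC treated B6 BMDMs, so that it fell in both strains. The largest positive ones were *Serpina3f* (6.85), *Nos2* (6.44 ± 1.88, SE, adjusted p = 0.011 by edgeR's quasi-likelihood test), *Serpina3g* (6.30), *Ch25h* (6.12) and *Tgtp1* (5.76). For the respiratory chain 15 of 79 interactions were positive and 1 negative, and for glycolysis 6 of 26 positive and 10 negative.

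CpG treated SjSS BMDMs share the control samples with the AC response, so that both were set side by side and tested directly against each other, at times that differ (2 h of ACs with 3 h after the wash, against 6 h of CpG). In that test 4063 genes (25.7%) were higher with ACs and 4179 (26.5%) lower. All 30 antiviral genes were higher with ACs than with CpG, *Rsad2* by 5.72 (AC 7.98, CpG 2.26). *Ifnb1* had a log2 fold change of 5.61 with ACs and 0.03 with CpG. The NF-kB list was divided, 10 higher and 6 lower of 19, and *Nfkbiz*, an inducer of late NF-kB targets, was lower with ACs (-1.76). Metabolic lists also differed. With ACs 18 of 25 cholesterol synthesis genes were lower than with CpG and 4 higher (*Sqle* -1.16 with ACs and 0.89 with CpG), 14 of 26 glycolysis genes lower and 6 higher, and 23 of 26 ribosome biogenesis genes lower and 1 higher. In the other direction 45 of 79 respiratory chain genes were higher and 1 lower, 16 of 33 TCA cycle genes higher and 4 lower, 24 of 30 lysosome and autophagy genes higher and 3 lower, and 14 of 24 engulfment genes higher and 1 lower. The TMM factors were 1.01 to 1.03 in CpG treated and 0.833 to 0.838 in AC treated SjSS libraries. Other scalings were not run for this comparison, so whether these list counts keep their direction under them was not tested. Of the Zfp symbols 192 of 342 were lower with ACs than with CpG and 24 higher. *Bmf* (-4.49 with ACs, -2.31 with CpG) fell under both treatments, whereas *Lpin1* had -3.12 with ACs and -2.81 with CpG, a difference of -0.31 ± 0.16 (SE, adjusted p = 0.105 by edgeR's quasi-likelihood test).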

How the data were processed

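The 18 BMDM libraries form 6 groups of 3, taken from the sample labels. Reads were aligned to mm10 by the authors with STAR, and the values deposited by the authors are estimated counts per gene from Partek's E/M quantification, without normalization. DESeq2 3.13 is listed in the submitters' processing notes. Because 41.1% of these estimated counts as deposited were not whole numbers (tolerance 1e-06), all were rounded first. Strand use is not given in the sources used here.

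The fit used edgeR 4.0.16 and limma 3.58.1 under R 4.3.3 (filterByExpr, TMM, 1 quasi-likelihood model of 6 group means over all 18 samples), with DESeq2 1.42.0 as an alternative. Tables and figures used Python 3.11.15, pandas 2.3.3, numpy 2.4.6, scipy 1.17.1 and matplotlib 3.10.9. Benjamini-Hochberg adjustment ran over 15789 genes. Values after ± with SE are standard errors of log2 fold changes from that model. A gene silent in 1 group passed the filter through the other, so that list counts cover tested members only. P values rest on the spread within all 6 groups of 3 samples, both strains and CpG included, estimated together in that model. The samples of a group are described as separate mice in the methods.

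The genes named are up to 6 members of each of 40 lists, the 15 largest decreases and 10 largest increases with at least 5 CPM and no overlap of samples, the 5 largest gains and losses of CPM, the 3 largest calls in each direction of the symbol families, and the 5 largest interactions in each direction. Members and lists were chosen with earlier results of these data known. The lists of nuclear and of mitochondrial ribosomal RNAs, and the genes of opposite response, were chosen after their values were seen. On simulated counts, edgeR recovered all 200 genes given a log2 change of 2, with 0 false calls among 15294. The changed genes were well expressed, rose and fell in equal numbers, and all genes shared a single dispersion. This simulation therefore does not cover the shift in library composition seen in the AC treated SjSS samples. Replicates differed by more than sampling noise in every pair. RefSeq promoters (GRCm38.p6) were matched for 9531 of 15789 genes (60.4%) whose start lay within 1000 bases of the deposited one. Alternatives were DESeq2, other scalings and filters, a lower fold threshold, the compared samples alone, a replicate block and each sample left out. Some members of the lists are counted in the lists but not reported here by name.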

Additional observations from a re-analysis of the deposited data

Results flagged for a closer look

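For 23 genes the AC responses of SjSS and B6 BMDMs differed by a test of the difference itself, the interaction term (quasi-likelihood test of edgeR, Benjamini-Hochberg adjustment). They are the 10 largest interactions under the rule for named genes, 5 in each direction, and 13 genes that were called in SjSS BMDMs and past the test in the opposite direction in B6 BMDMs by over 0.5 on the log2 scale. The 13 were chosen by their values. The values below are interactions, the log2 response of SjSS minus that of B6 BMDMs.

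A lower response in SjSS than in B6 BMDMs gave -4.70 for *Frat1*, -3.17 for *Bmf*, -2.84 for *Kcnq1ot1*, -2.62 for *Gpr183* and -2.60 for *Engase*. Of these, *Kcnq1ot1* did not fall past the test in B6. A higher response gave 6.85 for *Serpina3f* (SE 0.90), 6.44 for *Nos2* (SE 1.88), 6.30 for *Serpina3g*, 6.12 for *Ch25h* and 5.76 for *Tgtp1*. *Nos2* rested on 7 counts in control and 75 in AC treated B6 BMDMs, and *Serpina3f* on 14 and 98.

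The genes that rose in SjSS and fell in B6 BMDMs were led by *Arhgef37*, an exchange factor of small GTPases, at 4.53, and *Arid5a*, which stabilises cytokine mRNA, at 4.19 (SjSS 3.56, B6 -0.63). *Snn* was at 3.00, *Kif5c*, a kinesin motor, at 2.97, *Vnn3*, a pantetheinase, at 2.59 and the cyclin *Ccnd2* at 2.48. The cytokine receptor chains *Il12rb1* and *Il13ra1* were at 2.27 and 1.94, and *Adgre4* (F4/80-related) at 2.24. The uncharacterised genes were *9430076C15Rik* at 3.15, *4930523C07Rik* at 2.77, *9930111J21Rik1* at 2.42 and *5031414D18Rik* at 2.23. In SjSS BMDMs the 13 genes had log2 fold changes of 1.31 (*Il13ra1*) to 3.56 (*Arid5a*), and in B6 of -1.75 (*Arhgef37*) to -0.62 (*Snn*).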

How the results depend on the processing

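The counts of genes in the AC response of SjSS BMDMs stayed within 1.5 times their value with DESeq2's Wald test (1130 genes called higher and 882 lower), DESeq2's size factors, all genes kept without a filter, a minimum of 10 counts in 3 samples and a fit of the 6 samples alone (1054 and 854). Leaving out each sample in turn gave 1085 to 1139 genes called higher and 859 to 966 lower, and 4128 to 4294 and 4218 to 4372 genes past the test without a fold threshold. For the interaction the ranges were 716 to 753, 384 to 465, 2781 to 2985 and 2581 to 2719. With library totals alone 1900 genes were called lower, 2080 were past the test and higher and 8933 lower, and the interaction called 913 genes lower, with 1445 and 6623 past the test in the positive and negative direction. These totals count a library in which the genes called higher held over 20.6% of the counts, and no setting with a fixed amount of RNA was available. A log2 fold change over 1 in place of 1.3 called 1422 genes lower and 689 with a lower interaction. The share of higher genes among calls was 54.9% (47.1% with upper-quartile scaling, 29.7% with library totals), and for the interaction it was 63.2% (57.3% and 35.8%).

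With the replicate number as a block (replicate block), 1125 genes were called higher and 924 lower, and for the interaction 769 and 444, so that no count moved by over 1.5 times. *Ctsd* then passed the test (-0.12, adjusted p = 0.032 by edgeR's quasi-likelihood test). Whether the numbers pair the samples is not known, and the correlations do not settle it. The correlations of the deviations of same-numbered control and AC samples from their group means were 0.105, 0.068 and 0.0272 in SjSS and 0.193, 0.0437 and 0.0198 in B6 BMDMs, and every AC sample correlated best with its own number in SjSS but not in B6.

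Of 237 named genes 3 reversed, all with library totals and short of the test there, *Mki67* (-0.0578), *P2ry13* (-0.0575) and *Pgd* (-0.0639). Some named genes of small change were no longer past the test with library totals, among them *Abca1* (0.13), *Fth1* (0.15), *Hk3* (0.13), *Arntl* (0.04) and *Cd74* (0.31). *Mki67* was also not past it without replicate 1 or 3 of AC SjSS or replicate 1 or 2 of control SjSS (0.29 to 0.34), *P2ry13* without replicate 3 of AC SjSS or replicate 2 of control SjSS (0.33 and 0.32), and *Rn18s-rs5* passed it without replicate 1 of AC SjSS (-0.62, adjusted p = 0.046 by edgeR's quasi-likelihood test). Of 106 counts of list members past the test, 60 moved by over 1.5 times with library totals, 16 with upper-quartile scaling and 0 with DESeq2's size factors. Searching promoters on the gene's strand only gave shares of 3.33% for the ISRE core, 0.514% for NF-kB, 21.7% for CCAAT and 3.95% for the TATA box. Promoter shares over gene lists were not run, because fewer than 80% of the genes had a promoter in the table.

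Genes near 0 counts in control samples, such as *Nos2* and *Il6*, have log2 fold changes that depend on the prior count of the fit.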

Other observations

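The genes called in SjSS BMDMs after ACs were spread over all chromosomes tested. Among chromosomes, the share of tested genes called higher ran from 4.46% on chromosome 15 to 10.2% on chromosome 1, where 107 of 1046 genes were called, and the share called lower from 3.46% on chromosome 18 to 7.81% on chromosome 7, where 100 of 1280 were called. These shares were not tested for a difference between chromosomes.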
